A study of Mus musculus with 6 samples.

Results

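In mouse skin fibroblasts (MSFs), 9 genes of complement components and their regulators were examined, chosen by their names in the deposited table of 22162 genes: C1ra, C1s, Serping1, C4b, C2, C3, Cfb, Cfd and C7. Rows with these names were found for 8 of the 9 genes. The identifier of C7 (ENSMUSG00000079105) was listed under the name BC157982, and that row was used for C7. The MSFs came from the dorsal skin of FASST mice on the FVB/N strain, which carry a tamoxifen-inducible Cre driven by the pro-alpha 2(I) collagen promoter and a p27Kip1 allele with IRES GFP at ROSA26, behind a stop cassette flanked by lox sites. Both groups therefore carry both alleles, and the cells were kept at 3% oxygen. The 3 TAM samples, labelled senescent, received 10 µM tamoxifen for 48 h, and the 3 EtOH samples, labelled non-senescent, received the ethanol vehicle. The methods describe the MSFs as a line from a female mouse, and the sources used here do not say whether the replicates were separate isolates or when RNA was collected. The p-values therefore measure only the spread between these samples, which may be technical.

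Complement is a set of plasma proteins that tag microbes and damaged cells, recruit leukocytes and form pores in membranes. In the classical pathway C1q binds a target and activates the proteases C1r and C1s. C1s then cleaves C4 and C2, whose fragments form an enzyme, the C3 convertase, that cleaves C3. The alternative pathway amplifies this step with factor B and factor D, and the terminal pathway from C5 to C9 builds the membrane pore. The liver makes most of the circulating proteins, and fibroblasts, macrophages and adipocytes make several of them locally.

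Values are normalized counts, the reads assigned to a gene after a scaling between libraries that the table does not state. Their sums per library lay between 14952400 and 17315000, and read totals are not known, so no counting intervals are given. A gene was tested where 3 or more libraries held at least 16.2 normalized counts, which is 1 c.p.m. Of the 9 complement genes 6 passed, while Cfb, Cfd and C7 did not. Cdkn1b, the gene of p27Kip1, ranged from 1427 to 3074 normalized counts in EtOH and from 1520 to 1699 in TAM. Whether transgene reads were counted on it is not stated, so its row does not check the labels. The fibroblast markers Col1a1, Col1a2, Col3a1, Dcn, Lum, Pdgfra, Pdgfrb, Thy1 and Vim all passed the filter, with summed levels of 1531130 to 1679930 normalized counts in EtOH and 684804 to 1127040 in TAM. When limma weighted each library by its distance from the group model, both libraries numbered 2 had the lowest weights, 0.292 for EtOH and 0.288 for TAM, against 0.931 to 4.06 for the other 4. Results for the 6 tested complement genes of the list are given with and without the libraries numbered 2. Fold changes of the other genes named rest on all 6 libraries.

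C3, the protein at which all activation routes meet, was 4.12 times higher in the TAM mean than in the EtOH mean, and C1s, the protease that cleaves C4 and C2, was 2.16 times lower. The groups overlapped for C3, since EtOH replicate 2 lay above TAM replicate 2, and also for C1ra, Serping1, C4b and C2, but not for C1s. None of the 6 tested complement genes passed an adjusted p under 0.05 in limma, where 0.244% of all 11877 tested genes did, 0.168% higher and 0.0758% lower in TAM. At an unadjusted p under 0.05, C3 was higher and C1s lower, 2 of 6 genes against 13.4% of all tested genes. The log2 fold changes of the 6 genes were positive for 3 and negative for 3, with a median of −0.29 beside −0.03 over all tested genes. In bulk RNA a smaller share of cells that express a gene cannot be told apart from less of its RNA per cell.

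The sequences before the start sites of C3, C1s and C1ra are shown because C3 had the largest positive and C1s the largest negative log2 fold change of the 6 genes, and C1r and C1s act as partners. They are RefSeq windows of build GRCm38.p6, the 250 bases that end at the base before the start site. The C3 window is chr17:57228137-57228386 on the minus strand, the first of the C1s windows (RefSeq symbol C1s1) chr6:124542360-124542609 on the minus strand and that of C1ra chr6:124512371-124512620 on the plus strand. Capitals mark matches to TTGCNNAA, the core of sites bound by C/EBP factors, on either strand.
C3: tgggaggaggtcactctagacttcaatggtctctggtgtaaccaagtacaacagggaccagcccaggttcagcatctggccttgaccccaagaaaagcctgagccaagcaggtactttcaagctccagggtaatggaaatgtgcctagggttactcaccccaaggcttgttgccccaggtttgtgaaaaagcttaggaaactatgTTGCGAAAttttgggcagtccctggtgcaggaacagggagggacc
C1s: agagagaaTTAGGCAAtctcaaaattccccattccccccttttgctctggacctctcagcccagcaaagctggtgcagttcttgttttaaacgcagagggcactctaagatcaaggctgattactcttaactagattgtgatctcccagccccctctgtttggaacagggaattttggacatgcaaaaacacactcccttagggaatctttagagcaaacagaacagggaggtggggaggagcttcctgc
C1ra: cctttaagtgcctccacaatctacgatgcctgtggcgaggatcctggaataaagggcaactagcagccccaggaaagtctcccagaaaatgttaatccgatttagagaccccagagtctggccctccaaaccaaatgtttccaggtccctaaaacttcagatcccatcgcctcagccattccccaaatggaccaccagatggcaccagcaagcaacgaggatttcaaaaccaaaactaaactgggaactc
In C3 the match ran from 45 to 38 bases before the start (TTGCGAAA), and in C1s from 242 to 235 bases before it on the other strand (TTAGGCAA). In the C1ra window no match lay before the start site, and 1 lay within the 50 bases after it (TTATGCAA). The second C1s window, which overlaps the first, and the windows of Cfd and C7 held no match. This motif occurred in 10.8% of 32851 windows that span 250 bases before and 50 after a start. A sequence bound by STAT factors, TTCNNNGAA, was found in the windows of C1ra and C7 and in 8.3% of all windows. The interferon-stimulated response element (3.44% of all windows), the NF-kB consensus (4.51%) and the estrogen response element (0.07%) had no match in the windows of C3, C1s, C1ra, Cfd and C7. All motifs were searched on both strands, and a match is a description of letters. Windows of C4b, C2, Cfb and Serping1 were not in the table used.

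C1s and C1ra encode the paired proteases of the C1 complex. C1s (ENSMUSG00000038521; chromosome 6 of mm9, 124480363 to 124586998 in the annotation and to 124492339 in the table) had 2752, 4448 and 4217 normalized counts in EtOH replicates 1, 2 and 3, and 1845, 814 and 2630 in TAM. All 3 TAM values lay below the 3 EtOH values, as they did for 11.4% of all tested genes. In a further 9.19% they lay above, so groups did not overlap for 20.6% of genes in either direction, and for 1 of the 6 complement genes. The mean was 3806 ± 920 (SD, n = 3) in EtOH and 1763 ± 911 (SD, n = 3) in TAM. The log2 fold change, −1.24, had a standard error of 0.43 (limma adjusted p = 0.290), with an unadjusted 95% interval from −2.26 to −0.22. TAM replicate 2 was the lowest library, and without it the log2 fold change was −0.76 (limma adjusted p = 0.340). Without both libraries numbered 2 it was −0.63 (limma adjusted p = 0.295).

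C1ra (ENSMUSG00000055172; chromosome 6, 124462423 to 124473458) had 1378, 1346 and 1891 normalized counts in EtOH and 1292, 387 and 1425 in TAM. The groups overlapped, and TAM replicate 2 was again the lowest. The log2 fold change, −0.77, had a standard error of 0.49 (limma adjusted p = 0.560) with an interval from −1.91 to 0.38. Without TAM replicate 2 it was −0.16 (limma adjusted p = 0.769), and without both libraries numbered 2 it was −0.25 (limma adjusted p = 0.515).

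Both genes lie in a cluster with near copies of themselves. A C1ra transcript matched C1rb over 78.8% of its length at 97.9% identity, and a C1s transcript matched C1s2, listed as Gm5077, over 97.7% at 95.4%. Their values are uncertain to that extent, since the treatment of reads that match both is not stated. C1rb ranged from 13.4 to 72.8 normalized counts over the 6 libraries and Gm5077 from 14.2 to 126, well under C1ra and C1s. Adding each copy to its partner left the log2 fold changes at −0.76 for C1ra and −1.24 for C1s.

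Over the 6 libraries the log2 levels of C1s and C1ra had a Pearson's r of 0.90. The fibroblast genes Dcn, which encodes the proteoglycan decorin, and Pdgfra, a receptor for PDGF, named here after their values were seen, varied with both. For C1s r was 0.94 with Dcn and 0.94 with Pdgfra, and for C1ra 0.88 and 0.96. With Lum it was 0.80 for C1s and 0.84 for C1ra, and r was not computed for the other fibroblast markers. These points share libraries and the difference between groups. Dcn had 79944, 75763 and 106514 normalized counts in EtOH and 27277, 6712 and 25738 in TAM, so TAM replicate 2 was lowest for Dcn too. Of the 9 fibroblast markers 7 had a negative log2 fold change. Of these, 5 were lower in TAM without overlap, Col1a1, Col1a2, Col3a1, Dcn and Lum, as were 11.4% of all tested genes. Pdgfrb (0.09) and Vim (−0.16) overlapped, and Thy1 (1.36) was higher in TAM without overlap. No call was made for any of the 9 in limma, where Dcn had the smallest adjusted p, 0.163. The part of the fibroblast markers in the C1s result was not tested.

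**Figure D1:**
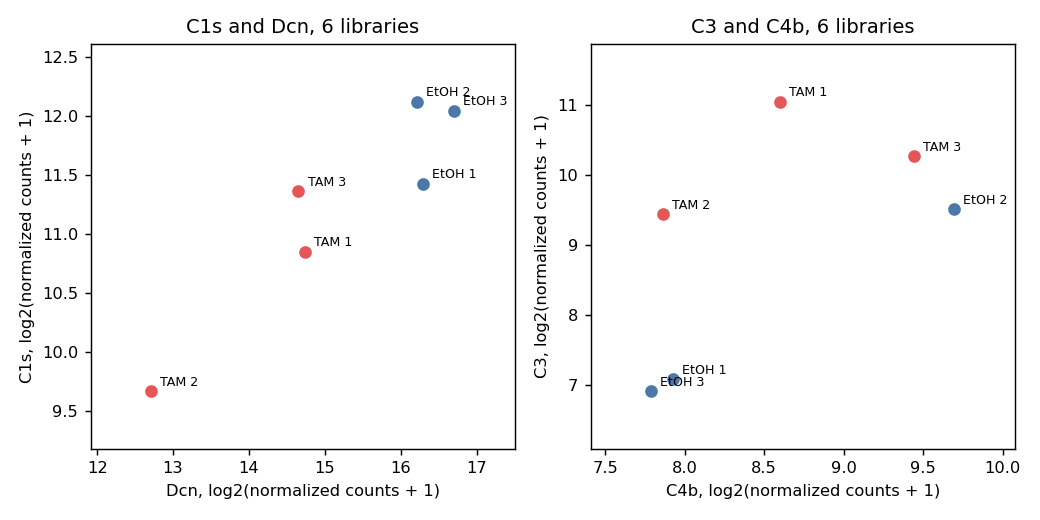
Levels in each of the 6 libraries as log2(normalized counts + 1), C1s against Dcn on the left and C3 against C4b on the right, with EtOH in blue, TAM in red and the replicate number beside each point. TAM replicate 2 is lowest for both C1s and Dcn, while EtOH replicates 1 and 3 are lowest for C3.

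Serping1 encodes the C1 inhibitor, which inactivates C1r and C1s. Serping1 (ENSMUSG00000023224; chromosome 2, 84605544 to 84615601) had 1039, 1218 and 429 normalized counts in EtOH and 1854, 475 and 621 in TAM. The highest value and the next-to-lowest were both in TAM, and the groups overlapped. Means were 895 ± 414 (SD, n = 3) in EtOH and 983 ± 757 (SD, n = 3) in TAM. The log2 fold change, 0.00, had a standard error of 0.59 (limma adjusted p = 0.999), with an interval from −1.38 to 1.38 that allows a difference of either sign. Its sign turned when EtOH replicate 3 or TAM replicate 1 was left out, with −0.46 and −0.59. Without both libraries numbered 2 it was 0.68 (limma adjusted p = 0.595).

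C4b and C2 supply the fragments of the classical C3 convertase. C4b (ENSMUSG00000073418; chromosome 17, 34865325 to 34880827) had 242, 828 and 220 normalized counts in EtOH and 387, 232 and 693 in TAM. The highest of the 6 values was EtOH replicate 2, and the groups overlapped. The log2 fold change, 0.16, had a standard error of 0.59 (limma adjusted p = 0.936), with an interval from −1.23 to 1.56. Its sign turned without EtOH replicate 1 (−0.11), EtOH replicate 3 (−0.18) or TAM replicate 3 (−0.24), while it was 1.16 without both libraries numbered 2 (limma adjusted p = 0.150). No row was found for C4a, a copy on the same chromosome, so C4a was not analysed here. A C4b transcript matched it over nearly its whole length at 95.9% identity, and how reads of both copies were counted is not stated.

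C2 (ENSMUSG00000024371; chromosome 17, 34999549 to 35035397 in the annotation and 34993357 to 35018987 in the table) had 112, 198.5 and 160 normalized counts in EtOH and 51.05, 86.3 and 233 in TAM. TAM held both the 2 lowest values and the highest one. The log2 fold change, −0.59, had a standard error of 0.54 (limma adjusted p = 0.686), with an interval from −1.87 to 0.69. It was −1.19 without TAM replicate 3, −0.11 without TAM replicate 1 and −0.29 without both libraries numbered 2 (limma adjusted p = 0.850), and its sign turned with library weights, to 0.28.

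C3 (ENSMUSG00000024164; chromosome 17, 57343397 to 57367559, with its exons in 41 blocks) is the convertase's substrate. Its normalized counts were 134, 731 and 119 in EtOH replicates 1, 2 and 3, and 2122, 695 and 1239 in TAM. EtOH replicates 1 and 3 were the 2 lowest libraries and TAM replicates 1 and 3 the 2 highest, while replicate 2 was close to the same in both groups, so the groups overlapped. The mean was 328 ± 349 (SD, n = 3) in EtOH and 1352 ± 720 (SD, n = 3) in TAM. The log2 fold change, 2.42, had a standard error of 0.73 (limma adjusted p = 0.242), with an unadjusted 95% interval from 0.70 to 4.15.

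Whether C3 passed the threshold depended on the libraries numbered 2. Without both of them it was 3.67 ± 0.28 (standard error, n = 2 per group) at an adjusted p of 0.0488 in limma, a setting chosen after seeing the data. Without EtOH replicate 2 alone it was 3.26 (limma adjusted p = 0.0871), and with library weights 3.18 (limma adjusted p = 0.0113), a setting under which 6.25% of all tested genes passed. The replicate number as a block left the adjusted p of limma at 0.229. Over all alternatives the log2 fold change of C3 stayed between 1.96 and 3.67.

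Macrophages and hepatocytes also make C3. Of 13 macrophage markers, C1qa, C1qb, C1qc, Emr1 and Tyrobp were listed at 0 in all libraries, and the summed level of the list was 223 to 575 normalized counts in EtOH and 407 to 579 in TAM, with Cd68 at 352 in EtOH replicate 2. Of the 5 tested macrophage markers 4 had a positive log2 fold change, as did 5487 of all 11877 tested genes. Lyz2 had a mean of 48.3 in EtOH and 135 in TAM and Csf1r 74.5 and 143. Both were higher in TAM without overlap, as were 9.19% of all tested genes, and Cd14 had 40.7 and 81.2 with overlap. The limma adjusted p-values of Lyz2, Csf1r and Cd14 were 0.141, 0.388 and 0.320. Cd74 and Cd68 overlapped, with log2 fold changes of 0.19 and −0.59. These markers are named after their values were seen. Of 7 hepatocyte markers Ttr and Apoc3 were at 0 in all libraries, and the sum was 5.10 to 8.52 in EtOH and 61.1 to 149 in TAM. Most of the TAM sum was Alb, named here after its values were seen and the only 1 of the 7 tested. Alb was called higher in TAM, with a log2 fold change of 4.22 (limma adjusted p = 0.0485). Its EtOH values, 3.38 to 5.66, lay under the filter, so Alb was tested only through its TAM values. Endothelial markers summed to 85.9 to 241 in EtOH and 15.7 to 35.1 in TAM, most of the EtOH sum being Kdr, named after its values were seen. Kdr had a mean of 130 in EtOH and 8.79 in TAM (limma adjusted p = 0.0608), but passed the filter only through EtOH. Tek had 17.1 and 6.07 and Pecam1 4.30 and 6.93, while Cdh5, Emcn and Tie1 were at most 4.80 in any library. Keratinocyte markers summed to 80.2 to 88.6 in EtOH and 64.2 to 126 in TAM. The part of these cell types in the C3 result was not tested.

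**Figure D2:**
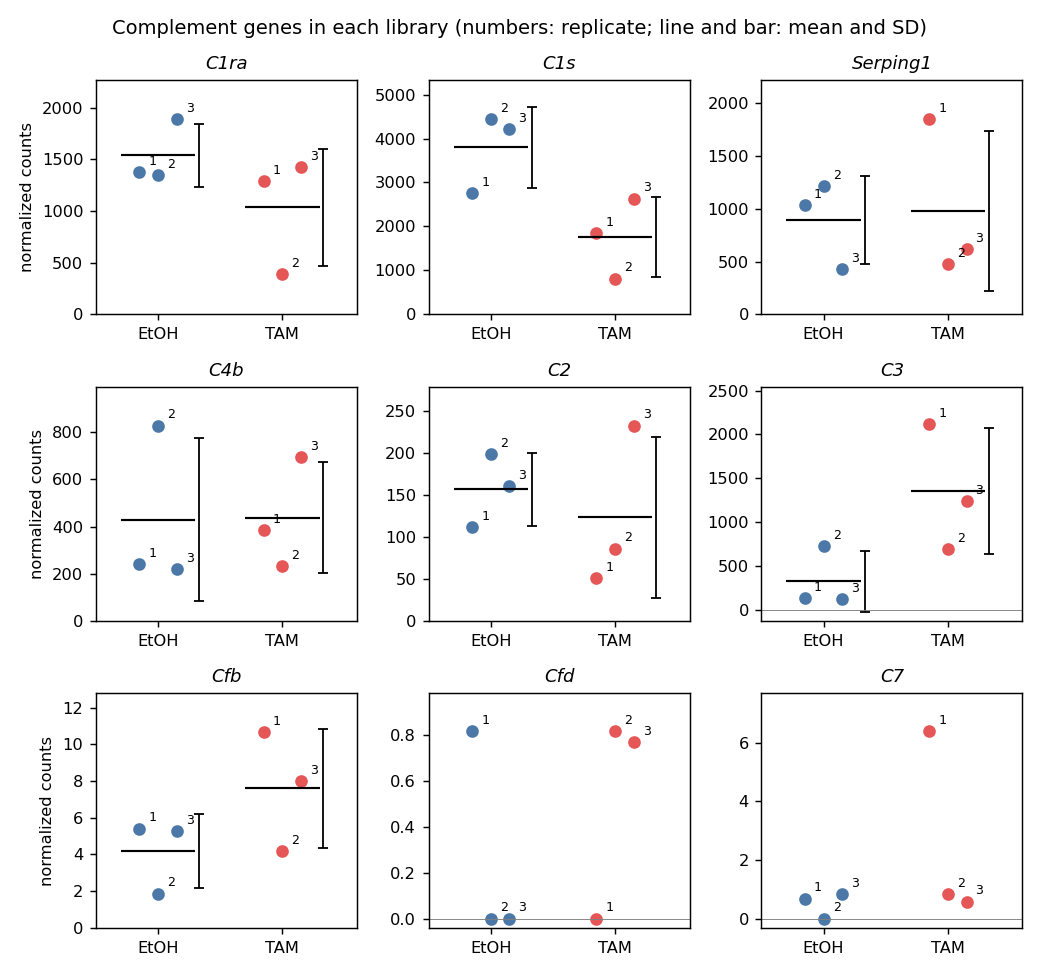
Normalized counts of the 9 complement genes in each library, with EtOH in blue, TAM in red and the replicate number beside each point. The line and bar give the mean and SD (n = 3), left out for Cfd and C7, where values of 0 occur, and only C1s has all TAM values on 1 side of the EtOH values.

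The factor B and factor D genes of the alternative pathway were near the lower limit of the table. Cfb (ENSMUSG00000090231; chromosome 17, 34993319 to 34999463) had 5.41, 1.87 and 5.28 normalized counts in EtOH and 10.7, 4.18 and 7.99 in TAM. In each same-numbered pair the TAM value was the higher one, with log2 differences of 0.86, 0.85 and 0.52, and the groups overlapped. All 6 values were under the filter, and no test was made. The annotation holds Gm20547, a gene on the same strand that shares 79.5% of the exon bases of Cfb and 40.8% of those of C2. The interval listed for C2 covers 99.4% of the interval of Cfb. How reads that fall on overlapping genes were assigned is not stated, so the levels of Cfb and C2 are uncertain.

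Cfd (ENSMUSG00000061780; chromosome 10, 79353598 to 79355401), known as adipsin and abundant in fat cells, had 0.82, 0 and 0 normalized counts in EtOH and 0, 0.82 and 0.77 in TAM. The smallest values above 0 of any gene were 0.36 to 0.89 in the 6 libraries, so Cfd was at the lower limit in both groups. The adipocyte markers Adipoq and Lep were at most 0.82 normalized counts in any library, and the 7 adipocyte markers summed to between 32.4 and 388.5 in EtOH and between 129 and 179 in TAM. C7 (chromosome 15, 4938762 to 5013740), a subunit of the membrane pore, had 0.68, 0 and 0.84 normalized counts in EtOH and 6.40, 0.82 and 0.58 in TAM. Only TAM replicate 1 was above 0.84.

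Levels of different genes were compared per kb of exon. Exon lengths came from the annotation, whose intervals for C1ra, C1s, Serping1, C4b and C2 differ from those listed with the counts. C1s was the most abundant of the 9, with 1090 normalized counts per kb in EtOH and 505 in TAM, at percentile 92.1 of the tested genes over all libraries. C1ra had 513 and 345, and Serping1 385 and 423. C3 had 63.9 per kb in EtOH, where C4b had 75.6, and 263 in TAM, where C4b had 76.8. C2 had 38.7 and 30.4, and Cfb 1.48 and 2.69. The libraries of C1s lay above those of C1ra in EtOH and overlapped them in TAM. C1ra and Serping1 overlapped in both groups. C3 and C4b overlapped in EtOH, while in TAM the lowest C3 library, 136 per kb, lay above the highest C4b library, 122 per kb.

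**Figure D3:**
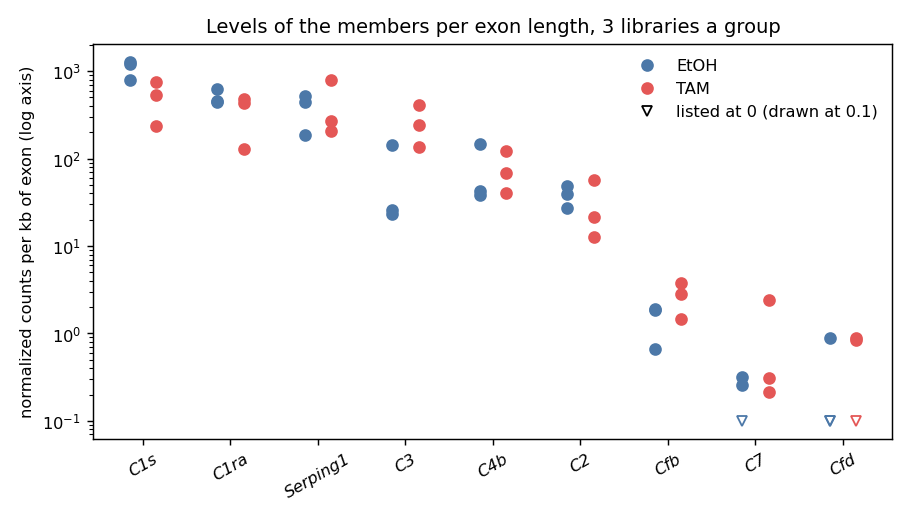
Normalized counts per kb of exon on a log axis for the 9 genes in each EtOH (blue) and TAM (red) library, with open triangles for values listed at 0. C1s, C1ra and Serping1 lie highest, and Cfb, C7 and Cfd lie at or below 3.77 per kb.

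Same-numbered libraries were compared for the 6 tested genes. In replicate 2 all 6 genes were lower in TAM, where 50.0% of all tested genes were. In replicate 1 it was 3 of the 6 genes against 54.8% of all, and in replicate 3 it was 2 of the 6 against 55.8%. The log2 differences of C3 were 3.97, −0.07 and 3.36 in replicates 1, 2 and 3. Those of C1s were −0.58, −2.45 and −0.68, so C1s was lower in TAM in 3 of 3 pairs. C1ra was also lower in 3 of 3 pairs, with −0.09, −1.80 and −0.41. The share of all tested genes lower in 3 of 3 pairs was not counted. C2, with −1.12, −1.19 and 0.53, was lower in TAM in replicates 1 and 2 and higher in replicate 3. C4b, with 0.67, −1.83 and 1.65, and Serping1, with 0.83, −1.36 and 0.53, were higher in TAM in replicates 1 and 3 and lower in replicate 2.

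**Figure D4:**
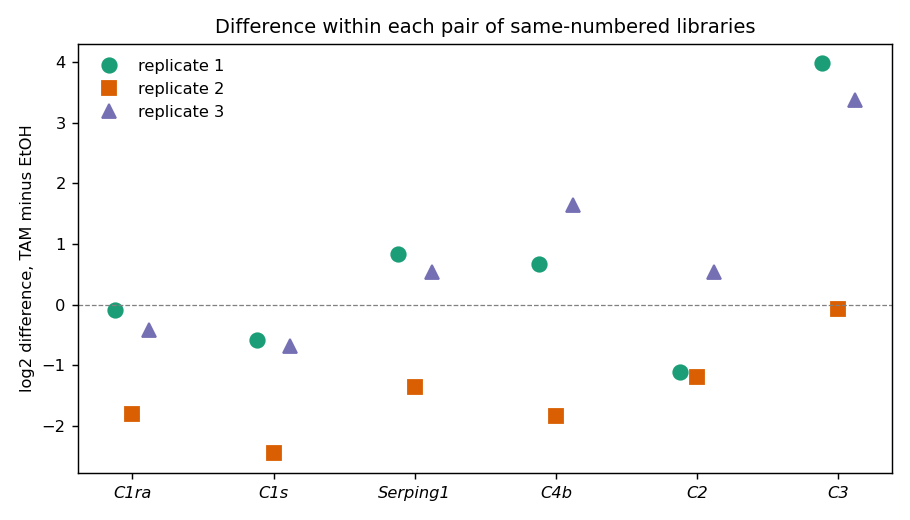
Log2 difference between the TAM and EtOH library of the same replicate number for the 6 tested complement genes, with a marker shape for each replicate. Replicate 2 (orange squares) is the lowest of the 3 for each gene and below 0 for all of them, −0.07 for C3.

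Of 50 other complement genes counted by role, 49 had a row and 18 were tested. None had an adjusted p under 0.05 in limma, and 11 of the 18 log2 fold changes were positive, with a median of 0.03. At an unadjusted p under 0.05, 3 were higher in TAM and 0 lower, beside 6.67% and 6.7% of all tested genes. These were Colec10, Masp1 and Cd59a. With the replicate number as a block, 1 gene passed, Colec10, which was higher in TAM. Of all tested genes 1.62% passed, 1% higher and 0.615% lower in TAM.

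The recognition part of the classical pathway had no reads listed, with C1qa, C1qb and C1qc at 0 in every library. C1rl, a relative of C1r, had a log2 fold change of −0.36 (limma adjusted p = 0.607). All 5 tested genes of the C1r and C1s families had negative values, as 6390 of all 11877 tested genes did. These genes are not independent, since C1rb and Gm5077 are near copies of C1ra and C1s. C1rb had log2 differences of 0.45, −1.73 and −0.28 in same-numbered pairs, the largest in replicate 2. Genes of the lectin pathway, which starts from sugar-binding proteins, had positive values in 4 of 4 tested genes, as 5487 of all 11877 did. For Masp2 the log2 fold change was only 0.02 (limma adjusted p = 0.976), and for Colec12 it was 0.34 (limma adjusted p = 0.524). Colec10, a secreted collectin, had 49.9, 14.2 and 26.4 normalized counts in EtOH and 178, 78.7 and 101 in TAM, and the groups did not overlap. Its log2 fold change, 2.03, had a standard error of 0.52 (limma adjusted p = 0.188), and its standard error fell to 0.28 once the replicate number was a block (limma adjusted p = 0.0451). Masp1, a protease that binds collectins, had 1583, 1870 and 600.4 normalized counts in EtOH and 2201, 4379 and 2968 in TAM. Its log2 fold change, 1.34, had a standard error of 0.46 (limma adjusted p = 0.286). Colec12, a scavenger receptor with a collectin head, had the highest counts of this group, 4686 ± 937 (SD, n = 3) in EtOH and 5869 ± 360 (SD, n = 3) in TAM.

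Among soluble inhibitors Clu and Cpn2 had log2 fold changes of 0.88 and 0.91, with adjusted p-values of 0.626 and 0.505 in limma. Of the regulators on the cell surface, Cd59a, which blocks the pore, had 568 ± 115 (SD, n = 3) normalized counts in EtOH and 1017 ± 367 (SD, n = 3) in TAM (log2 fold change 0.80, limma adjusted p = 0.295). Cr1l, which speeds the decay of the convertase, had 1349 ± 175 (SD, n = 3) and 1013 ± 94.6 (SD, n = 3) (log2 fold change −0.41, limma adjusted p = 0.376). Properdin (Cfp) differed by 0.03 on the log2 scale. In the terminal pathway only C8g was tested, with a log2 fold change of 0.02, while Hc, the gene of C5, was at most 8.97 normalized counts and C8b was at 0 in all libraries. The receptor genes Itgb2 and Cr2 had log2 fold changes of −0.73 and 1.22, with adjusted p-values of 0.583 and 0.577 in limma. In same-numbered pairs the log2 differences of Cr2 were 0.45, 3.49 and −0.29, and those of Clu 0.71, 2.28 and −0.34. Cd59a had 0.52, 1.68 and 0.21, so for each of these genes replicate 2 held the largest difference. Itgb2 had −1.13, 0.64 and −1.70.

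**Figure D5:**
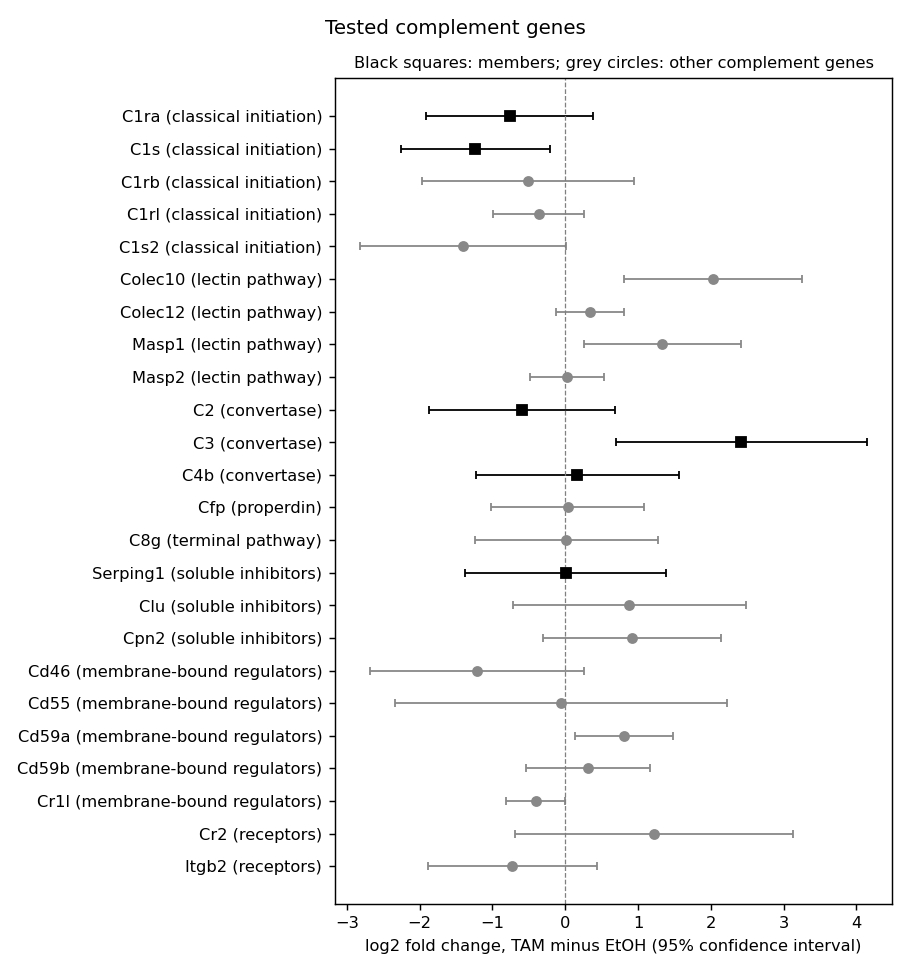
Log2 fold change, TAM minus EtOH, with its unadjusted 95% confidence interval from limma for the 24 tested complement genes shown, ordered by role, with the 6 members as black squares. C3 has the largest positive value, 2.42, and none of the genes has an adjusted p under 0.05.

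The genes whose log2 levels were most like those of C3 over the 6 libraries were Stk35 (Pearson's r 0.99), Zbp1 (0.98), Rtp4 (0.98), Nnat (0.98) and Lef1 (0.98). They were picked from 11877 genes for this likeness. Zbp1, a sensor of nucleic acids, had 34.1, 105 and 25.5 normalized counts in EtOH and 423, 161 and 196 in TAM, so its TAM values lay above its EtOH values.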

How the data were processed

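Poly(A) RNA of 3 TAM and 3 EtOH samples was sequenced. Per the methods, the authors used TopHat for alignment to mm9, htseq-count with RefSeq genes for counting, and edgeR. The deposited table holds normalized counts, a signal that is not whole, and its scaling, the strand setting and the treatment of shared reads are not given in the sources used here. From it, log2(value + 1) was tested with limma 3.58.1 (R 4.3.3, trended variance) on 11877 of 22162 genes with at least 16.2 normalized counts in 3 libraries, with Benjamini-Hochberg adjustment over them and a call at 0.05. Same-numbered libraries deviated together (correlations of 0.24, 0.29 and 0.42, against −0.31 to 0.04 for other numbers). The labels state no pairing, so the replicate number was a block only in an alternative fit. Genes named were the members, other complement genes called with or without the block, the 2 highest by mean in each role, near copies, the 5 most like C3, and genes listed at 0 in all libraries. Masp2, Cdkn1b and the marker genes given with values lie outside this rule. Members and lists (complement, fibroblast, macrophage, adipocyte, hepatocyte, endothelial and keratinocyte) were chosen with earlier results of these data known. Alternatives were other scalings, pseudocounts, filters, the replicate block, library weights and leaving out libraries. A listed gene is not reported here and was left out of the counts by role.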

Additional observations from a re-analysis of the deposited data

How the results depend on the processing

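Over all tested genes 29 were called (20 higher, 9 lower). The count was 48 with no filter on low values (45 higher, 3 lower), 18 with at least 10 in every library, 742 with library weights, 0 to 15 when 1 library was left out, and 9 without both libraries numbered 2, a setting chosen after seeing the data. The replicate block, which treats same-numbered libraries as pairs, gave 192 calls and called 1 of the other complement genes (Colec10). It changed no other call on the complement genes named. Of the endothelial markers it called Kdr, lower in TAM (limma adjusted p = 0.0488). Kdr was the only endothelial marker tested, and it passed the filter only through its EtOH values. Of the members, 1 was called with library weights and 1 without both libraries numbered 2, in each case C3, with log2 fold changes of 3.18 and 3.67. Of the other complement genes 3 were called with library weights, Itgb2, Cr1l and Colec10. The sign turned for C2 with library weights (0.28), and among settings that left out 1 library C2 ranged from −1.19 to −0.11, and the sign also turned for C4b, from −0.24 to 0.78, and Serping1, from −0.59 to 0.39. The cause was not tested. Scaling to equal sums moved the median log2 fold change of all tested genes from −0.03 to 0.08. The sum of C4a and C4b was not run, since no C4a row was found. Read depth is unknown, which limits what can be said of Cfb, Cfd and C7.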

Other observations

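The ratios of 3 pairs of complement genes within each library were chosen after seeing the data, and their p-values are unadjusted. C3 over C4b was 0.554, 0.882 and 0.542 in EtOH replicates 1, 2 and 3, and 5.48, 3.00 and 1.79 in TAM, so all 3 TAM ratios were higher, replicate 2 included. C3 over C1s was 0.0488, 0.164 and 0.0283 in EtOH and 1.15, 0.855 and 0.471 in TAM, again without overlap. For both ratios the exact two-sided permutation p was 0.1, the smallest that 3 against 3 libraries allow. C1s over C1ra was 2.00, 3.30 and 2.23 in EtOH and 1.43, 2.10 and 1.85 in TAM, so the groups overlapped, and the ratio was lower in TAM in 3 of 3 same-numbered pairs (unpaired exact two-sided permutation p = 0.2).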
